A study of Mus musculus with 6 samples.

Results

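RNA-seq of V6.5 murine ESCs infected with either of the 2 SMC2 hairpins was compared with RNA-seq of cells that received a GFP hairpin. These were 3 of the 6 libraries of the series, chosen by their labels: SMC2 #1, SMC2 #2 and GFP. The other libraries were 2 CAPH2 hairpins, written CAPH2 #1 and #2 here for replicates 1 and 2, and 1 SMC1 hairpin, and they entered the same fit. V6.5 is an embryonic stem cell line of a C57BL/6-129 background, and all 6 cultures carried a lentiviral hairpin and its puromycin resistance. Cells had been maintained on irradiated fibroblasts and were grown without them for a single passage before collection. According to the labels, all 6 cultures were infected in medium with the same dose of polybrene, and selection began 24 hours later. Puromycin was given at 0.5 µg/ml for 48 hours and then at 1 µg/ml for 48 hours. Cells were collected 96 hours after selection. Nothing in the labels says that a hairpin was infected in more than 1 culture, and GFP is represented by 1 library.

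SMC2 and SMC4 are the ATPase core of both condensins, ring-shaped complexes that compact chromosomes for mitosis. Condensin I adds CAPH, CAPD2 and CAPG to this core, and condensin II adds CAPH2, CAPD3 and CAPG2. Condensin II is nuclear throughout the cell cycle, while condensin I reaches chromosomes after the nuclear envelope breaks down. A hairpin against Smc2 therefore targets a subunit shared by both complexes, whereas one against Ncaph2, which encodes CAPH2, targets condensin II alone.

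Counts over all RefSeq transcripts, in which a shared exon is counted for each isoform, summed to 28524603 in GFP, 29953010 in SMC2 #1 and 27150995 in SMC2 #2. Embryonic stem cell markers were abundant in all 3 libraries: Pou5f1 (OCT4) measured 1285 RPKM (exonic reads scaled by exon length and library reads) in GFP, 1173 in SMC2 #1 and 1134 in SMC2 #2. The summed level of 12 fibroblast markers was 58.5 RPKM in GFP, 73.8 in SMC2 #1 and 65.2 in SMC2 #2. The highest of them was Col1a1, at 20.8 RPKM in GFP, 25.3 in SMC2 #1 and 22.5 in SMC2 #2. The lowest, Dcn and Lum, had at most 5 counts in each of these libraries. The ERCC spike-in RNAs, added per cell, took 2.32% of the reads in GFP and 1.49% and 1.57% in SMC2 #1 and #2. Scaling to them adds 0.64 (SMC2 #1) and 0.57 (SMC2 #2) to every log2 change against GFP, so changes below are relative to the bulk of the RNA. The spike-in share also differed between the CAPH2 hairpins, 1.496% and 2.397%.

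The Smc2 gene (NM_008017 in the deposited table; chromosome 4, 52452121 to 52501131, plus strand, mm9) was lower with both SMC2 hairpins than in every other library. Its RPKM was 26.6 in GFP, 18.81 in SMC2 #1 and 19.14 in SMC2 #2, from 3049, 2255 and 2079 counts. The level left was 70.7% of GFP with SMC2 #1 (95% exact binomial interval 66.9 to 74.6, counting error only) and 71.9% with SMC2 #2 (68.0 to 76.0). The fall was 0.47 ± 0.08 (SE) on the log2 scale, with an adjusted p of 0.0216 in edgeR's quasi-likelihood test with Benjamini-Hochberg adjustment over all genes. Scaled to the spike-ins, the direction turned, with 109.9% and 106.5% of the GFP level. Smc2 was higher in the libraries that targeted other subunits, at 42.3 and 40.6 RPKM in CAPH2 #1 and #2 and 41.9 in SMC1. Against CAPH2 #1 the level left was 44.5% (42.3 to 46.7) with SMC2 #1 and 45.2% (43.0 to 47.6) with SMC2 #2. The size of the knockdown thus depended on the library it was read against, and the GFP library lay between the SMC2 pair and the others.

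Among the 8 condensin genes, Smc2 fell and Smc4 and Ncapg2 rose against GFP (edgeR). Smc4, which encodes the partner of SMC2, was at 47.4 RPKM in GFP and 60.9 with each SMC2 hairpin (log2 change 0.38 ± 0.07, edgeR adjusted p = 0.0279). Ncapg2, of condensin II, was at 10.2 in GFP, 13.8 in SMC2 #1 and 13.4 in SMC2 #2 (0.44 ± 0.09, edgeR adjusted p = 0.0301). In both genes GFP was also below CAPH2 and SMC1, which measured 59.2 to 63.8 RPKM for Smc4 and 12.9 to 16.1 for Ncapg2. With a trend on GC content and mRNA length removed, as described below, the mean log2 RPKM change was 0.07 for Smc4 (0.36 before) and 0.09 for Ncapg2 (0.42 before). None of the other 5 passed the test. Ncaph2 was at 80.2 RPKM in GFP and at 63.9 and 64.9 in SMC2 #1 and #2 (log2 difference -0.30 ± 0.22, edgeR adjusted p = 0.395), with 16.9 and 27.9 in the CAPH2 libraries that target it. Ncapg, Ncapd3, Ncapd2 and Ncaph differed from GFP by between -0.20 and 0.25 on the log2 scale with either hairpin.

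**Figure D1:**
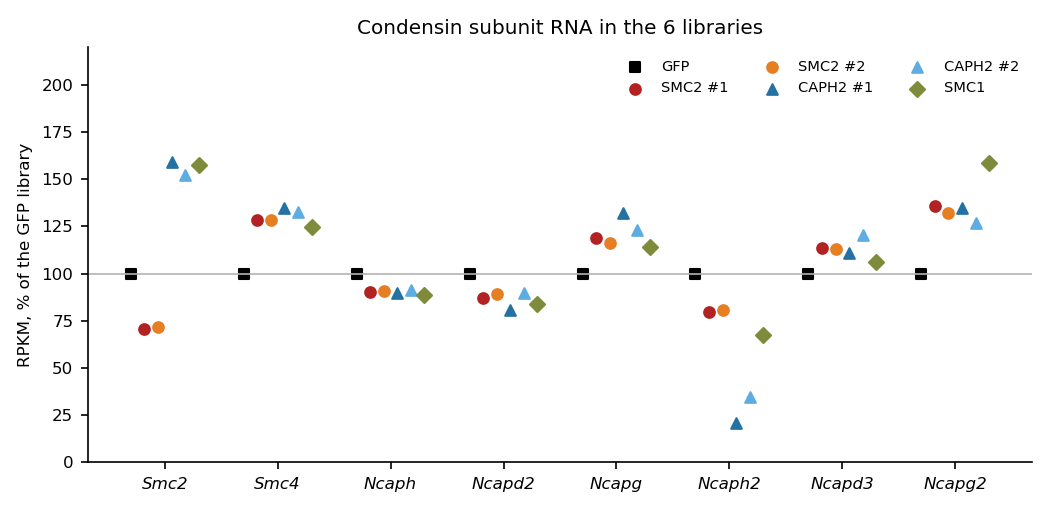
RPKM of the 8 condensin genes in each library as a percent of the GFP library (y axis, linear from 0), 1 point per library. Smc2 was at 70.7% and 71.9% of GFP with the SMC2 hairpins and above GFP in the CAPH2 and SMC1 libraries, and Ncaph2 was lowest in the CAPH2 libraries. Scaled to the spike-ins, the SMC2 libraries stood at 109.9% and 106.5% for Smc2.

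Of 12464 genes with at least 50 counts in 1 or more of the 3 libraries, 885 (7.10%) were called at an adjusted p under 0.05, 593 up (4.76%) and 292 down (2.34%). The changes were small: the called-up genes had a median log2 change of 0.49 and the called-down genes -0.57. With no test, 540 genes (4.33%) passed 1.5-fold with both hairpins in the same direction, 287 up (2.30%) and 253 down (2.03%), and 245 of them were called. Both hairpins lay above GFP in 4852 genes and below it in 5567, and they differed in sign in 2045. Of the called genes, 8 had under 50 counts in GFP and 5 in both SMC2 libraries. In this fit the spread came from the CAPH2 and SMC2 pairs, and the lone GFP library was assumed to vary like them. The call count rested on those pairs: without SMC2 #1 edgeR called 1 gene (2606 at an unadjusted p under 0.05), without SMC2 #2 it called 0 (2322 unadjusted), and without CAPH2 #1 or CAPH2 #2 it called 2667 each time. The calls given for single genes and lists below rest on both SMC2 hairpins in this way, and scaled to the spike-ins edgeR called 0 (491 unadjusted). DESeq2 called 755 genes on all 6 libraries.

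The GFP library stood at the edge of the series for most of the called genes. It was the lowest of all 6 libraries in 570 of the 593 called-up genes (96.1%), against 28.1% of all genes kept. It was the highest in 284 of the 292 called-down genes (97.3%), against 31.4%. Every called gene had both SMC2 libraries on the same side of GFP, so these shares were partly fixed by the calls. Over all genes kept, GFP was lowest in 3498, beside 4852 with both hairpins above it. It was highest in 3913, beside 5567 with both hairpins below it. Because both hairpins are read against that single library, an SMC2 effect and a trait of the GFP culture or library cannot be told apart in these genes. No gene lay outside the other 4 libraries by 1.5-fold in both SMC2 libraries, in either direction (0.00%). Without a margin, 355 genes lay above and 581 below all 4.

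**Figure D2:**
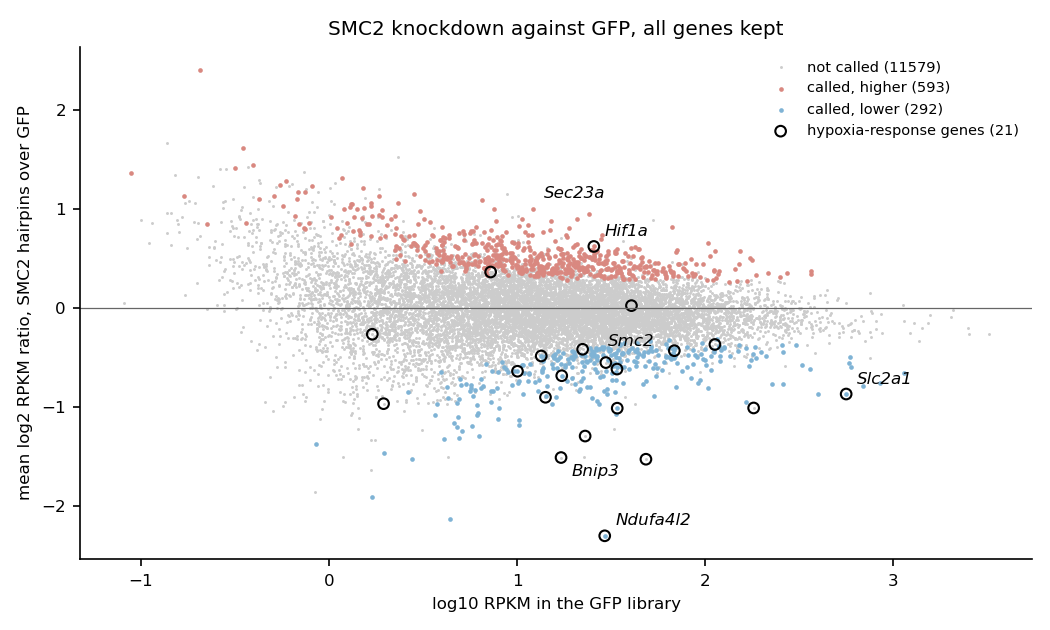
Mean log2 RPKM ratio of the 2 SMC2 hairpins over GFP (y axis) against log10 RPKM in GFP (x axis), 1 point per gene, with 593 called-up and 292 called-down genes in colour and 21 hypoxia-response genes circled. Most circled genes lie below 0, with Ndufa4l2 lowest and Hif1a above 0. Scaled to the spike-ins, all points would stand higher by the shift given in the text.

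The called genes also differed in sequence composition and length. Risers had a median mRNA GC content of 43.4% and a median exon length of 5.20 kb, fallers 56.8% and 2.03 kb, and all genes kept 51.0% and 2.84 kb. With the genes in 5 bins of equal size by GC, 15.3% of the lowest bin were called up and 0.083% down, while 0.58% of the highest bin were called up and 6.21% down. The median log2 change ran from 0.19 with both hairpins in the lowest bin to -0.17 and -0.21 in the highest. Between the hairpins themselves the GC bins differed little, from -0.02 to 0.02, but 5 bins by exon length ran from 0.09 in the shortest genes to -0.09 in the longest. With a smooth trend on GC and length removed from each library, edgeR called 2 of 12085 genes (0.0165%; 2418 at an unadjusted p under 0.05). They were Smc2, which fell by 0.82 ± 0.07 (edgeR adjusted p = 0.0224), and Sec23a, which rose by 0.80 ± 0.08 (edgeR adjusted p = 0.0431). The number of genes past 1.5-fold with both hairpins was 317 (2.62%) after the trend was removed, 194 up (1.61%) and 123 down (1.02%), and 253 of them were among the 540 in the same direction. Trend-removed values are given below for the main groups, and the part of GC content and length in the results was not tested beyond that.

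**Figure D3:**
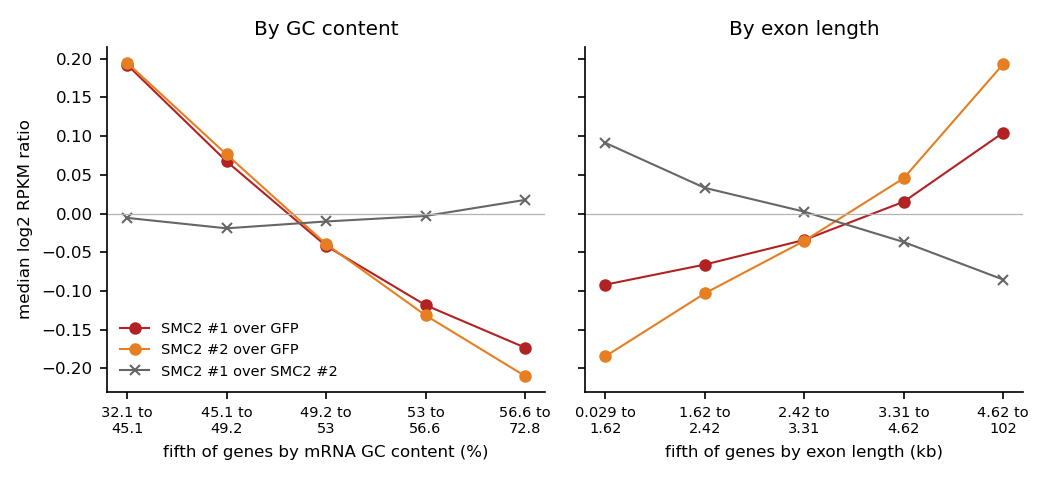
Median log2 RPKM ratio (y axis) over 5 equal-sized bins of the genes by mRNA GC content (left) and by exon length (right), for each SMC2 hairpin over GFP and for SMC2 #1 over SMC2 #2. Both hairpins fall from 0.19 at low GC to -0.17 and -0.21 at high GC, while the ratio between the hairpins stays between -0.02 and 0.02.

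Sec23a encodes a coat protein of the vesicles that leave the endoplasmic reticulum, and it was chosen here after its values were seen. It measured 12.2 RPKM in GFP and 24.4 and 24.6 in SMC2 #1 and #2 (1081, 2258 and 2060 counts). The other libraries were at 24.5 and 24.1 for CAPH2 and 23.0 for SMC1. The 5 knockdown libraries thus lay within a narrow range and GFP alone was low.

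The group that lay farthest below GFP was the hypoxia-response genes. When oxygen is short, prolyl hydroxylases no longer mark the transcription factor HIF-1 alpha for destruction, and it binds RCGTG motifs to activate genes for glucose uptake, glycolysis, collagen hydroxylation and mitochondrial turnover. Of 22 listed genes, 21 passed the count filter. In edgeR 6 fell (background 2.34%) and 1 rose (background 4.76%), and 8 passed 1.5-fold downward with both hairpins (background 2.03%). DESeq2 called 3 of the 21, Hif1a, P4ha1 and Ero1a. In these bulk samples, fewer cells of a type and less RNA per cell cannot be told apart. The median log2 change was -0.73 with SMC2 #1 and -0.46 with SMC2 #2, beside -0.02 with each over all genes. The medians lay further from 0 after the GC and length trend was removed, at -0.83 and -0.54, with 9 genes past 1.5-fold (background 1.02%), though none was then called. Scaled to the spike-ins the list's medians were -0.09 and 0.11, the latter above 0, beside 0.62 and 0.55 over all genes.

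The HIF motif was looked for in the 250 bases before the start of each gene's transcript, read from NCBIM37 (mm9), as ACGTG or GCGTG on either strand. A match held in 18 of the 21 hypoxia-response promoters (85.7%), 13 of 17 glycolysis promoters (76.5%) and 58.0% of all 12464. The share was 61.0% in the 292 called-down genes and 56.2% in the 593 called-up genes. A link between the motif and the falls was not tested. Ndufa4l2 has none in this window. The CACGTG box, a site of other factors, contains ACGTG and was not counted apart. The match nearest to the start is shown for the other 5 called-down genes and for Bnip3, 5′ to 3′ on the gene's strand and with the match in capitals, to show the letters behind this count.
Egln1 (chr8:127473198-127473242, minus strand, match 68 bases before the start): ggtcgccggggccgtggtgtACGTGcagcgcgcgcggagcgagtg
Slc2a1 (chr4:118781294-118781338, plus strand, match 36 bases before the start): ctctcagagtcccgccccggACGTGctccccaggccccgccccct
P4ha1 (chr10:58786008-58786043, plus strand, match 16 bases before the start): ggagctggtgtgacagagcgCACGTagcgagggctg
P4ha2 (chr11:53914337-53914381, plus strand, match 69 bases before the start): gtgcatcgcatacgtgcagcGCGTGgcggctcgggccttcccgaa
Mxi1 (chr19:53403817-53403861, plus strand, match 66 bases before the start): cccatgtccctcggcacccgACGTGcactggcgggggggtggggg
Bnip3 (chr7:146101200-146101244, minus strand, match 35 bases before the start): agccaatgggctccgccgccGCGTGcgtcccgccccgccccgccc

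Ndufa4l2, a HIF target that dampens mitochondrial respiration, had the largest fall of all called genes. Its RPKM was 29.3 in GFP, 4.11 in SMC2 #1 and 8.61 in SMC2 #2, with 5.79 and 14.7 in CAPH2 #1 and #2 and 1.35 in SMC1. GFP was highest and the SMC2 libraries fell inside the range of the others (log2 change -2.19 ± 0.47, edgeR adjusted p = 0.0347). Slc2a1 encodes the glucose transporter GLUT1 and was abundant at 563 RPKM in GFP, 273 in SMC2 #1 and 348 in SMC2 #2 (-0.84 ± 0.16, edgeR adjusted p = 0.0289). Egln1, the main prolyl hydroxylase that senses oxygen, was at 34.1 in GFP and 15.3 and 18.7 with the SMC2 hairpins (-0.98 ± 0.19, edgeR adjusted p = 0.0279). Both genes were highest in GFP.

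The collagen prolyl hydroxylase genes P4ha1 and P4ha2 fell together. P4ha1 was at 17.3 RPKM in GFP, 10.5 in SMC2 #1 and 11.0 in SMC2 #2 (-0.66 ± 0.13, edgeR adjusted p = 0.0303), and P4ha2 at 10.1, 6.08 and 6.86 (-0.62 ± 0.13, edgeR adjusted p = 0.0360). In P4ha2 the SMC1 library stood above GFP, at 12.2 RPKM, the only one of the 6 called-down genes of the list in which GFP was not highest. Mxi1, a MYC antagonist, was at 13.4 in GFP and 9.43 and 9.80 with SMC2 (-0.46 ± 0.11, edgeR adjusted p = 0.0471). Hif1a itself rose, from 25.6 RPKM in GFP to 39.7 and 39.1 (0.64 ± 0.09, edgeR adjusted p = 0.0194). GFP was the lowest library for Hif1a, and the GC content of Hif1a, 41.3%, lies among the genes that tended to rise. With the GC and length trend removed, the mean log2 RPKM change of Hif1a was 0.35 (0.62 before).

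Several members with larger differences did not pass the test, and 3 of them are named here after their values were seen. Bnip3, a mitophagy receptor, was at 17.1 RPKM in GFP, 4.78 in SMC2 #1 and 7.59 in SMC2 #2, with 4.86 and 10.4 in the CAPH2 pair (edgeR adjusted p = 0.0522). Egln3, another prolyl hydroxylase, was at 48.5, 12.8 and 22.1 in the same order, with 12.2 and 25.3 for CAPH2 (edgeR adjusted p = 0.0527). Ankrd37 was at 23.0, 7.76 and 11.4, with 6.88 and 14.3 for CAPH2 (edgeR adjusted p = 0.0660). In all 3 genes hairpin #1 of each target was lower than hairpin #2. SMC2 #1 was below SMC2 #2 in 19 of the 21 genes of the list, beside 6376 of all 12464 genes kept. The list's median level was 60.5% of GFP in SMC2 #1, 72.8% in SMC2 #2, 60.5% and 68.4% in the CAPH2 pair and 61.2% in SMC1. GFP was the highest library in 16 of the 21 genes and lay above both SMC2 libraries in 18. Over all genes kept, these counts were 3913 and 5567. The low levels were thus shared by all 5 knockdown cultures in those 16 genes.

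**Figure D4:**
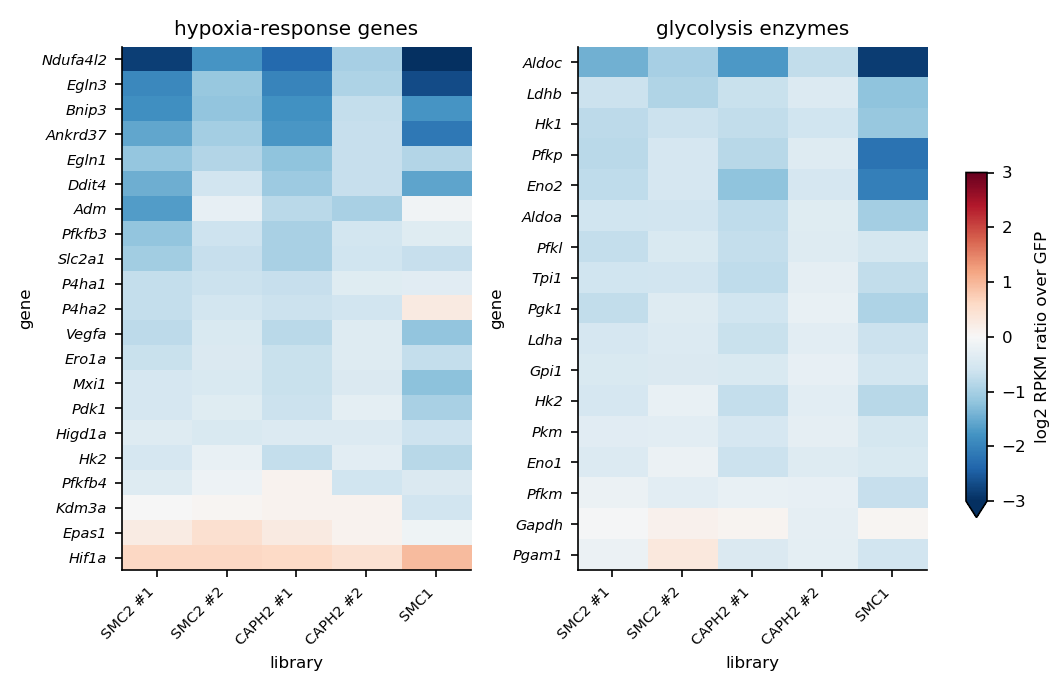
Log2 RPKM ratio over GFP of the 21 hypoxia-response genes (left) and 17 glycolysis enzymes (right), 1 column per knockdown library, ordered by the mean of the SMC2 hairpins. Colours end at the limits of the scale, and Ndufa4l2 in SMC1 lies beyond it. Blue cells, below GFP, fill most rows in all 5 libraries, and Hif1a is above GFP throughout. On spike-in scaling, the SMC2 columns shift up by 0.64 and 0.57.

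Glycolysis enzymes, many of which are HIF targets, lay below GFP as well. All 17 listed genes were kept, and 4 fell and none rose in edgeR, beside 2.34% and 4.76% of all genes (12 below GFP and 0 above it at an unadjusted p under 0.05, DESeq2 4 called). The median log2 change was -0.60 with SMC2 #1 and -0.43 with SMC2 #2, and -0.46 and -0.32 with the GC and length trend removed. Scaled to the spike-ins, these medians were 0.04 and 0.14, above 0. Hk1, a hexokinase for the entry step, was at 22.3 RPKM in GFP, 13.1 in SMC2 #1 and 14.4 in SMC2 #2 (-0.68 ± 0.10, edgeR adjusted p = 0.0203). Ldhb, a lactate dehydrogenase subunit, was at 227, 145 and 122 (-0.74 ± 0.12, edgeR adjusted p = 0.0219). Aldoa (aldolase) was at 596, 392 and 397 RPKM, and Gpi1 (glucose-6-phosphate isomerase) at 261, 191 and 193, with edgeR adjusted p-values of 0.0442 and 0.0356. GFP was the highest of the 6 libraries in 3913 of all 12464 genes kept and in 15 of these 17. The exceptions were Pgam1 and Gapdh, which measured at most 6.53 RPKM here. Both have near-identical copies elsewhere in the genome, and reads with more than 2 alignments had been discarded, so their values are uncertain.

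Sterol genes also lay below GFP, with smaller differences than the hypoxia list. They encode the pathway from acetyl-CoA to cholesterol and the receptors that take cholesterol up, and share control by SREBP2. Of 24 kept genes, 3 fell and none rose in edgeR (16 and 0 unadjusted, DESeq2 4 called), beside 2.34% and 4.76% of all genes. With both hairpins 23 lay below GFP, as did 5567 of all 12464 genes. The medians were -0.37 and -0.34, and -0.34 and -0.29 with the trend removed. On spike-in scaling they were above 0, at 0.27 and 0.22, below the 0.62 and 0.55 of all genes. The 3 called genes were Mvd (58.9 RPKM in GFP, 39.9 in SMC2 #1, 36.6 in SMC2 #2, edgeR adjusted p = 0.0370), Dhcr7 (52.7, 33.4 and 35.7, edgeR adjusted p = 0.0369) and Pmvk (60.3, 42.9 and 39.9, edgeR adjusted p = 0.0289). Mvd and Pmvk act in the mevalonate branch, and Dhcr7 makes the last reduction to cholesterol. In each of them GFP was above all 5 other libraries, where the 3 genes measured 29.3 to 43.5 RPKM. GFP was highest in 18 of the 24 genes, 23 of which lay below it with both hairpins. Over all genes kept, these counts were 3913 and 5567.

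Genes of cohesin, the ring complex that holds sister chromatids together and is loaded by NIPBL, lay above GFP. Of 16 genes, 8 rose and none fell (12 and 0 unadjusted, DESeq2 8 called; background 4.76% for rises), with medians of 0.33 and 0.35. With the GC and length trend removed the medians were 0.13 and 0.09, and the list's median GC content was 42.9%. Pds5b, a cohesin release and maintenance factor, was at 10.9 RPKM in GFP and 16.6 with each SMC2 hairpin (0.63 ± 0.08, edgeR adjusted p = 0.0193). Nipbl was at 9.14, 12.9 and 13.9 (0.58 ± 0.09, edgeR adjusted p = 0.0212), Stag2 at 13.1, 18.6 and 19.2 (0.55 ± 0.08, edgeR adjusted p = 0.0203) and the acetyltransferase gene Esco1 at 4.87, 7.57 and 7.23 (0.63 ± 0.11, edgeR adjusted p = 0.0245). In all 4 GFP was the lowest library. The others called were Pds5a, Wapl, Stag1 and Smc6, the last of which belongs to the related SMC5/6 complex. The ring subunits Smc1a, Smc3 and Rad21 did not pass (log2 differences of 0.30, 0.25 and 0.18, with edgeR adjusted p-values of 0.0679, 0.0752 and 0.157).

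Among 18 genes that respond to FGF and ERK signalling, which pushes ESCs out of the naive state, 5 rose and none fell in edgeR (8 and 2 unadjusted, DESeq2 6 called), beside 4.76% and 2.34% of all genes. These were Myc and the feedback genes Spred1, Dusp6, Spry4 and Etv5. The medians, 0.21 and 0.13, were higher with the GC and length trend removed, at 0.34 and 0.33. Myc was at 10.2 RPKM in GFP, 19.9 in SMC2 #1 and 16.6 in SMC2 #2 (0.86 ± 0.19, edgeR adjusted p = 0.0369). Dusp6, a phosphatase that acts on ERK, was at 22.6, 34.2 and 31.5 (0.56 ± 0.11, edgeR adjusted p = 0.0289). Spred1 was at 24.7, 36.4 and 37.8 (0.61 ± 0.09, edgeR adjusted p = 0.0194). GFP was lowest of the 6 libraries for these 3 genes and for Etv5, and the SMC1 library was lower than GFP for Spry4, at 16.1 against 21.0 RPKM. With the trend removed, all 5 had an edgeR adjusted p between 0.0815 and 0.0845. Fgf4, also on the list and a signal that ESCs make themselves, measured 178 RPKM in GFP and 120 and 136 with SMC2, with an edgeR adjusted p of 0.0507.

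Calls among the pluripotency factors are read beside 4.76% called up and 2.34% called down over all genes. Among the core factors, Zfp281, a zinc finger factor, was at 30.5 RPKM in GFP, 44.7 in SMC2 #1 and 46.1 in SMC2 #2, and rose (0.60 ± 0.08, edgeR adjusted p = 0.0193). Nanog was at 424 RPKM in GFP and 359 and 368 with the SMC2 hairpins, and Sox2 at 365, 318 and 334, and neither passed the test (edgeR adjusted p = 0.146 and 0.285). Of 16 naive factors, Gbx2 rose while Klf2 and Tcl1 fell. Gbx2 was at 28.0 RPKM in GFP, 46.4 in SMC2 #1 and 44.6 in SMC2 #2 (0.72 ± 0.10, edgeR adjusted p = 0.0194), against the GC trend, since its mRNA is 65.6% GC. Klf2 was at 210, 148 and 151 (edgeR adjusted p = 0.0342) and Tcl1 at 75.4, 48.3 and 48.9 (edgeR adjusted p = 0.0498). GFP was the lowest library for Gbx2 and the highest for Klf2 and Tcl1. With the GC and length trend removed, the mean log2 RPKM change was 0.92 for Gbx2 (0.70 before) and 0.33 for Zfp281 (0.58 before). It was -0.24 for Klf2 (-0.49 before) and -0.48 for Tcl1 (-0.63 before).

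Calls in lineage and related lists stand beside 4.76% called up and 2.34% called down over all genes. Of 12 trophectoderm genes, Ascl2 and Tfap2c fell in edgeR, while DESeq2 did not call Tfap2c and gave no adjusted p for Ascl2: Ascl2 was at 5.74 RPKM in GFP, 2.26 in SMC2 #1 and 2.80 in SMC2 #2 (edgeR adjusted p = 0.0249). Of 12 BMP pathway genes, the receptors Bmpr2 and Bmpr1a rose and the ligand gene Bmp7 fell. Bmpr2 was at 2.98, 5.62 and 5.11 RPKM and Bmp7 at 5.72, 3.09 and 3.44 (edgeR adjusted p = 0.0211 and 0.0369). With the GC and length trend removed, the mean log2 RPKM change of Bmpr1a was 0.07 (0.37 before). That of Bmpr2 was then 0.73 (0.85 before) and that of Bmp7 -0.63 (-0.81 before). Of 15 fibroblast genes, Prrx1 and Fbn1 rose and none fell (6 and 0 unadjusted, DESeq2 1 called). Prrx1 was at 0.571, 1.18 and 1.16 RPKM and Fbn1 at 1.59, 2.87 and 2.88 (edgeR adjusted p = 0.0407 and 0.0295). The whole list summed to 452 RPKM in GFP and 525 and 487 in SMC2 #1 and #2, and the part of leftover feeder cells in these rises was not tested. Cdh2 (formative and primed epiblast), Lrp2 (primitive endoderm) and Sox1 (neural) were the only edgeR calls in their lists, all upward, and DESeq2 also called the neural gene Nes. None of 9 mesendoderm factors, 13 basement membrane genes, 12 Nodal pathway genes or 5 Hox genes was called in edgeR or DESeq2, with 2, 2, 1 and 0 of them at an unadjusted p under 0.05.

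Cell cycle, stress and chromatin genes gave few calls. Of 32 mitosis genes edgeR called only Top2a, upward, at an adjusted p of 0.0498, and of 35 DNA replication genes only Ung, downward, while DESeq2 called Ung and Pold1. Of 26 DNA repair genes, Prkdc and Atm rose and H2ax fell. With the GC and length trend removed, the mean log2 RPKM change of Prkdc was 0.02 (0.47 before), that of Atm 0.0085 (0.45 before) and that of H2ax -0.59 (-0.87 before). H2ax, the histone variant phosphorylated at DNA breaks, was at 397 RPKM in GFP, 226 in SMC2 #1 and 210 in SMC2 #2 (-0.84 ± 0.15, edgeR adjusted p = 0.0249), with 139 to 259 in the other knockdowns. No p53 target (21 kept), ATF4 target (25) or unfolded protein response gene (16) was called in edgeR, with 8, 9 and 4 at an unadjusted p under 0.05 and 0, 1 and 0 called by DESeq2. Of 15 heat shock genes Hspd1 rose and Hspb8 fell, of 12 interferon-stimulated genes Stat2 fell, and of 15 NRF2 and glutathione genes Mgst3 fell. Of 29 Mediator subunits Med13 and Med14 rose, of 15 Polycomb genes Mtf2 and Rnf2, of 9 DNA methylation and TET genes Tet1, and of 22 ribosome biogenesis genes Utp20, Nop58 and Myc. These counts stand beside 4.76% called up and 2.34% called down over all genes. With the GC and length trend removed, the mean log2 change of Med13 was -0.02, so its direction turned, and that of Med14 was 0.05, Tet1 0.05, Mtf2 0.11, Rnf2 0.15 and Top2a 0.03. DESeq2 called Med13 but not Med14, and neither Stat2 nor Mgst3.

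In the remaining lists, of 89 kept genes of oxidative phosphorylation (a list matched by name start, which takes in assembly factors and Ndufa4l2) 3 fell, Ndufa4l2, Cox7a1 and Ndufv3, and 70 lay below GFP with both hairpins. Over all genes 2.34% fell, and 5567 of 12464 lay below GFP with both. DESeq2 called 1 of the 89, Ndufv3. The medians of -0.13 and -0.25 were -0.02 and -0.03 with the GC and length trend removed. None of 78 mitochondrial ribosomal protein genes was called (7 unadjusted, DESeq2 0). Of 26 imprinted genes, Plagl1, Rian and Peg3 rose, beside 4.76% of all genes. Of 16 germline and meiosis genes, Stag3, the meiotic cohesin subunit, fell from 22.3 RPKM in GFP to 13.9 and 14.8 (-0.61 ± 0.12, edgeR adjusted p = 0.0279), and the list's medians of -0.44 and -0.38 were -0.42 and -0.44 with the trend removed. Of the signalling targets, 1 Wnt target of 14 (Axin2) and 1 SRF or YAP target of 19 (Flna) rose in edgeR. So did 1 integrin of 12 (Itga1) and 1 LIF-STAT3 gene of 13 (Gbx2), again beside 4.76% of all genes. DESeq2 called 0 Wnt targets, 0 integrins (it gave no adjusted p for Itga1), 1 SRF or YAP target (Flna) and 2 LIF-STAT3 genes (Gbx2 and Socs3). Members of the clustered protocadherin list share 3′ exons and so share reads. None of 21 clustered protocadherins, 5 replication-dependent histone genes or the 1 two-cell stage gene kept was called, with 0, 1 and 0 unadjusted and 0 called by DESeq2.

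**Figure D5:**
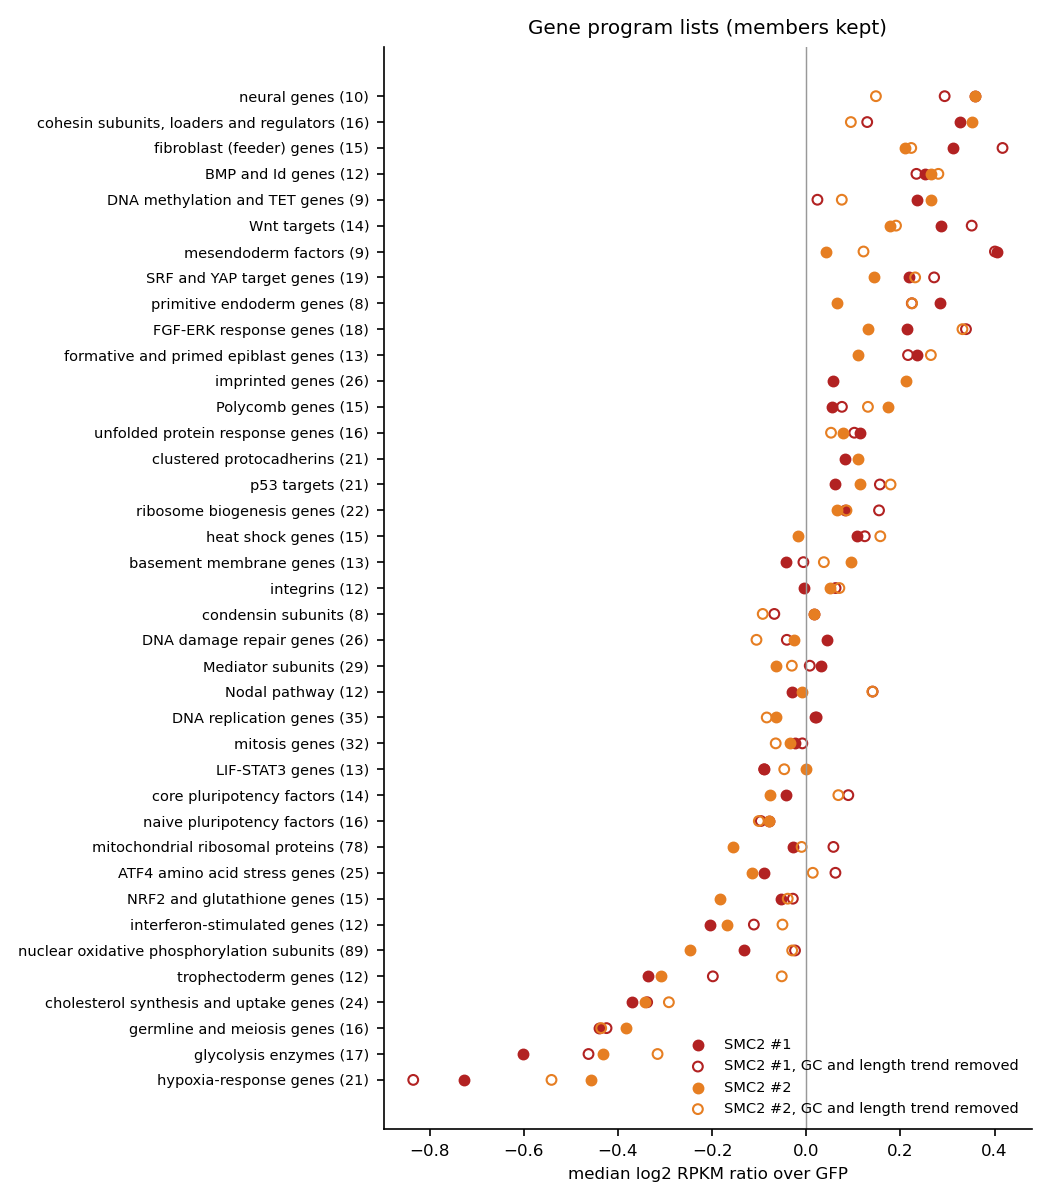
Median log2 RPKM ratio over GFP (x axis) of each gene list with at least 8 genes kept (number in parentheses), for SMC2 #1 and #2. Open circles have the GC and length trend removed and are drawn where at least 80% of a list has a GC value. Hypoxia-response genes (-0.73 and -0.46) and glycolysis enzymes (-0.60 and -0.43) lie lowest, and cohesin genes move from 0.33 and 0.35 to 0.13 and 0.09 with the trend removed. Spike-in scaling moves every filled point up, and only hypoxia-response genes with SMC2 #1 (-0.09) then stay below 0.

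Beyond the lists, the largest falls among called genes were in genes at low levels. After Ndufa4l2 came Cdc42ep2, an effector of the small GTPase CDC42, at 4.38 RPKM in GFP, 0.712 in SMC2 #1 and 1.40 in SMC2 #2 (135, 23 and 41 counts, edgeR adjusted p = 0.0270). Hrc, a calcium-binding protein of the sarcoplasmic reticulum, was at 1.70, 0.329 and 0.625 (edgeR adjusted p = 0.0316), and Jsrp1, another gene of muscle calcium release, at 2.77, 0.971 and 0.961 (edgeR adjusted p = 0.0264). Misp, which positions the mitotic spindle, was at 1.97, 0.585 and 0.868 (edgeR adjusted p = 0.0303). In all 4 the GFP library was higher than the other 5. Padi1, Atp6v0a4, Gm128, Nxph4, Vax2os, Slc11a1 and Ascl2 completed the 12 largest falls.

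The largest rises were lower still in GFP. Ano3, of the anoctamin family, had 13 counts in GFP and 63 and 74 with the SMC2 hairpins, or 0.205, 0.949 and 1.23 RPKM (2.42 ± 0.59, edgeR adjusted p = 0.0477). Hdx, a homeobox gene on the X chromosome, was at 0.349, 0.979 and 1.17 (edgeR adjusted p = 0.0222), and the metalloprotease gene Tll1 at 0.396, 1.07 and 1.08 (edgeR adjusted p = 0.0343). The collagen receptor gene Itga1 was at 0.318, 0.913 and 0.786 RPKM, the cadherin gene Cdh11 at 0.749, 1.93 and 1.48, and Zeb2, a repressor of E-cadherin, at 0.551, 1.38 and 1.22 (edgeR adjusted p = 0.0279, 0.0465 and 0.0233). Each of these 6 was lowest in GFP, and Zeb2, Cdh11, Itga1, Tll1 and Hdx were highest in the SMC1 library. Fat4, Trim36, Uggt2, Arhgef26, Slc8a2 and Pcdh18 completed the 12.

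The SMC2 hairpins were close to each other. Among 10101 genes with at least 200 counts in either, 5 (0.0495%) were over 1.5-fold higher in SMC2 #1 and 17 (0.168%) in SMC2 #2, and the median absolute log2 difference was 0.09. With 1 library each these differences have no replicate check. The nuclear RNA Malat1 was at 70.02 RPKM in SMC2 #1 and 138 in SMC2 #2 (50.7%, interval 49.6 to 51.9, counting error only), with 53.2 in GFP. Bhlhe40, a hypoxia-inducible repressor outside the list, was at 15.7 and 29.6 (52.9%, interval 49.1 to 57.0), with 42.2 in GFP. The imprinted antisense RNA Kcnq1ot1 was at 0.056 and 0.126, in counts 105 and 215. The largest ratios the other way were in Tceal8 (46.5 and 26.8 RPKM), Sgk3 (1.96 and 1.16) and 4930481A15Rik (5.78 and 3.72).

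Read against CAPH2, which does not use the GFP library, the SMC2 hairpins differed in their own target. edgeR called 1 of 12464 genes (0.00802%; 358 at an unadjusted p under 0.05, DESeq2 6 called), and this was Smc2, where it dropped by 1.12 ± 0.06 on the log2 scale (edgeR adjusted p = 0.000878). Ncaph2 was 1.54 ± 0.19 higher in SMC2 than in CAPH2 yet was not called (edgeR adjusted p = 0.172), with 16.9 and 27.9 RPKM in the CAPH2 pair. A true knockdown target therefore stayed below the threshold, and the single call does not show that the 2 knockdowns act alike. Without CAPH2 #2, edgeR called 181 genes, and without CAPH2 #1 it called 4. The hypoxia-response genes differed between SMC2 and CAPH2 by -0.67 (Ndufa4l2, SE 0.44) to 0.19 (Epas1), with a median of -0.05 and a median SE of 0.14. For glycolysis enzymes the median was -0.02, for sterol genes 0.08 and for FGF-ERK genes -0.03, and no gene of these lists was called.

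Against SMC1, the cohesin knockdown, 4958 genes (39.8%) were called, 2372 higher and 2586 lower in SMC2, with the lone SMC1 library assumed to vary like the pairs. Without SMC2 #1 the count was 2807. Genes of naive pluripotency were high in SMC2 by this comparison: 15 of 16 were called, each of them higher. Esrrb, a naive pluripotency factor, was at 173 and 182 RPKM in SMC2 #1 and #2 and 21.5 in SMC1 (log2 difference 3.05 ± 0.11, edgeR adjusted p = 4.38e-06), with 210 in GFP. Tfap2c was at 41.0 and 40.0 against 5.85, and Septin1 at 91.1 and 86.7 against 8.16. Among the genes lower in SMC2, Lrp2, an endocytic receptor of primitive endoderm, was at 9.67 and 11.0 against 60.4 RPKM in SMC1 (-2.55 ± 0.10, edgeR adjusted p = 4.45e-06). Mmp25 was at 4.17 and 4.56 against 39.1, and Sema3e at 7.36 and 8.45 against 40.8. In each of these genes the SMC2 pair was nearer to GFP than to SMC1. Of 15 fibroblast genes 13 were called, each lower in SMC2 than in SMC1, and that list summed to 727 RPKM in SMC1. Of the hypoxia-response genes, 5 were called higher and 2 lower in SMC2.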

How the data were processed

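RNA-seq reads of 6 libraries were aligned by the authors with Bowtie to mm9, and the RPKM_count script counted exonic reads per RefSeq transcript. The deposited counts are raw, and the deposited RPKM values are those counts scaled by exon length and library reads. The kit (TruSeq version 2) does not mark strand, so overlapping antisense genes cannot be told apart. The 92 spike-in rows were left out. One row per gene, the one with the most counts over all 6 libraries, was kept (21050 genes from 26073 rows, 22 of them without a symbol), with at least 50 counts in GFP or an SMC2 library.

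Counts of all 6 libraries were fitted in edgeR 4.0.16 (R 4.3.3) with TMM scaling and the quasi-likelihood test, by target, with Benjamini-Hochberg adjustment at 0.05. Each hairpin's log2 RPKM ratio to GFP used no pseudocount, and a value of 0 was set to 3 counts. Intervals are 95% exact binomial and cover counting error only. Nothing says that hairpins came from repeated cultures, so p-values measure the spread between these libraries. The steps were tested on simulated data. Alternatives were DESeq2 1.42.0, other scalings and filters, a replicate block and left-out libraries. Removal of a GC and length trend (natural splines with 5 degrees of freedom each, GC from GENCODE transcripts) was added after the data were seen.

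The members and gene lists were chosen with earlier results of these data known. The genes named were the condensin subunits, the 12 largest rises and falls among called genes, up to 4 called genes per list (with none called, the 2 with the largest change, not all printed), 3 genes per direction with the smallest adjusted p against CAPH2 and SMC1, and 3 per direction between the hairpins. Other genes named were chosen after their values were seen. A withheld item is not reported here. Motifs were read from NCBIM37, the mm9 assembly. Listed genes that matched no row were not analysed here.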

Additional observations from a re-analysis of the deposited data

How the results depend on the processing

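Against GFP, the 885 calls became 1794 with every gene that had a count and 3027 with GFP and SMC2 alone. They became 0 with spike-in scaling, 2 with the GC and length trend removed, and 0 to 2667 with 1 library left out. With the trend also removed, the count was 0 with either SMC2 hairpin left out. Leaving out a CAPH2 library was not tested with the trend removed. The 540 genes past 1.5-fold became 4965 with spike-in scaling, 192 on log2(RPKM + 1), 1820 with every gene that had a count, 73 at 2-fold, 317 with the trend removed, and 914 to 933 with a hairpin left out. Against CAPH2 the single call became 6 with every gene that had a count, 6 in DESeq2, and 0 to 181 with 1 library left out. Against SMC1 the 4958 calls became 2807 to 3358 with a hairpin left out. With spike-in scaling 1 gene lay outside the other 4 libraries, and the Smc2 level left was 109.9% and 106.5%. That scaling also turned the mean log2 change of Smc2 (0.11), Mxi1 (0.12), Gpi1 (0.16), Aldoa (0.0081), Pmvk (0.058), Klf2 (0.12), Tfap2c (0.26), Stat2 (0.13), Ung (0.18) and Ndufv3 (0.052), and trend removal turned Med13 (-0.016). Spike-in scaling adds the same shift to every gene. For the other settings the cause was not tested. DESeq2 size factors moved 13 of 111 named genes by more than the spread between hairpins, and TMM 27.

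With the replicate block, edgeR called 2476 genes against GFP and 7 against CAPH2, and 1663 and 71 with the trend also removed. The numbers are not shown to pair the libraries: same-numbered deviations correlated at 0.132 over only 2 pairs. One GFP library limits every comparison with it, and depth limits genes near 50 counts.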
